A study of Mus musculus with 5 samples.

Results

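Acetylcholine and noradrenaline reach the central amygdala (CeA), a forebrain nucleus of mostly inhibitory neurons, and 10 genes that encode receptors for these transmitters were followed here: Chrm1, Chrm2, Chrm3, Chrm4, Chrna4, Chrna7, Adra1a, Adra1b, Adra2a and Adra2c. They were chosen by name, not by level, and are 10 of the 22532 genes in the files. Their raw UMIs (unique molecular identifiers, 1 per captured RNA molecule) were compared over classes of nuclei and between fed and fasted mice. Nuclei from microdissected CeA were sequenced in 5 libraries, each holding the tissue of 1 male and 1 female mouse processed together, labelled C57BL6 (C57BL/6NRj for wild-type mice and a C57BL/6N background for transgenic mice in the study's methods). Fed replicates 1 and 2 came from mice aged 8 weeks on a normal feeding schedule. Fed replicate 3 came from fed Htr2a-Cre mice aged 12 weeks that carried AAV-DIO-mCherry, so that it differs from the others in genotype, virus and age. Fasted replicates 1 and 2 came from mice aged 8 weeks without food for 20 and 21 hours.

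Muscarinic receptors couple acetylcholine to G proteins. M1 and M3 (Chrm1 and Chrm3) act through Gq, which activates phospholipase C and releases calcium, whereas M2 and M4 (Chrm2 and Chrm4) act through Gi, which lowers cyclic AMP and opens potassium channels. Nicotinic receptors are ion channels opened by acetylcholine, in which the alpha 7 subunit (Chrna7) forms channels of its own and alpha 4 (Chrna4) assembles with beta subunits such as that of Chrnb2. For noradrenaline, the alpha 1 receptors (Adra1a and Adra1b) act through Gq and the alpha 2 receptors (Adra2a and Adra2c) act through Gi, partly as brakes on release at nerve terminals. RNA in a nucleus marks the cell that makes the receptor, so a receptor that axons from elsewhere carry is not seen here.

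Of 23839 barcodes, 7161 had 500 to 8000 genes and under 0.8% mitochondrial UMIs. Libraries kept 9763452 to 29703855 UMIs, with medians per nucleus of 6608 and 8326 in both libraries numbered 1 and 13813.5 to 16367 in the others. Pairs of libraries shared 0 or 1 barcode. Inhibitory nuclei, with more Gad1 and Gad2 UMIs than glutamate transporter UMIs and low glial sums, made up 5618 (78.5%), and 3238 of them (57.6%) fell into 13 neuron classes, each named for the gene or genes of its gate. Glial classes came from sums of known glial genes. Some marker genes kept out of the gates were highest, among the neuron classes, in the class they were picked for. These were the neuropeptide genes Tac2 and Nts in Dnah5/Vipr2 (166 and 59.3 CPM), Tshz1 in Foxp2 (302), Adora2a in Rarb (86.3) and Lhx6 in Nkx2-1 (90.4). Others were highest elsewhere. Cyp26b1, picked for Prkcd, was highest in Calcrl (44.9), and Crh, picked for Dnah5/Vipr2, in Pde1c (27.2, against 15.5). Oprm1, picked for Foxp2, and Htr1b, picked for Vdr, were also highest in Pde1c (181 and 24.9). Of the genes picked for Rarb, Ppp1r1b was highest in Pde1c (61.8) and Rgs9 in Dnah5/Vipr2 (247). Pax6, picked for Sst/Ebf1, was highest in Rarb (62.9). Drd2, a gate gene, was highest not in the Rai14/Drd2 class but in the Rarb class (230 CPM). CPM, a gene's UMIs scaled to equal totals, are taken over all UMIs of a class in a library, and errors are SDs over the 5 libraries unless said otherwise. Where a class holds few nuclei the counting error is large, and fewer nuclei of a kind within a class and less RNA per nucleus cannot be told apart from a summed level.

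The 10 receptors fell into 6 that were counted often and 4 that were barely seen. Over all nuclei, Chrm3 gave 32190 UMIs, Adra1a 11614, Chrm2 5450, Chrm1 4630, Chrna7 4401 and Adra1b 653. Chrna4 gave 185 UMIs, Chrm4 98, Adra2a 90 and Adra2c 70. Introns were counted, and the genes differ in length. On the GRCm39 build Chrm3 spans 485.362 kb of chromosome 13 (9925522 to 10410883, minus strand), whereas Chrm1 spans 21.317 kb of chromosome 19 (8640962 to 8662278, plus strand). Adra1b, which gave fewer UMIs than Chrm1, spans 126.605 kb. Whether length shapes these totals was not tested. Per kb of gene, the order over all inhibitory nuclei was led by Chrm1 at 2.64 CPM per kb, followed by Adra1a at 0.9496, Chrm4 at 0.824, Chrm3 at 0.736, Chrm2 at 0.404, Chrna7 at 0.389, Adra2c at 0.209, Adra2a at 0.189, Chrna4 at 0.0745 and Adra1b at 0.0571. Chrm4 (chromosome 2, 91757594 to 91759033), Adra2a (chromosome 19, 54032582 to 54037413) and Adra2c (chromosome 5, 35435663 to 35439107) are short, at 1.44, 4.832 and 3.445 kb. At their low totals the 4 rare genes are described by counts, and an absence from a class cannot be told from low capture.

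**Figure D1:**
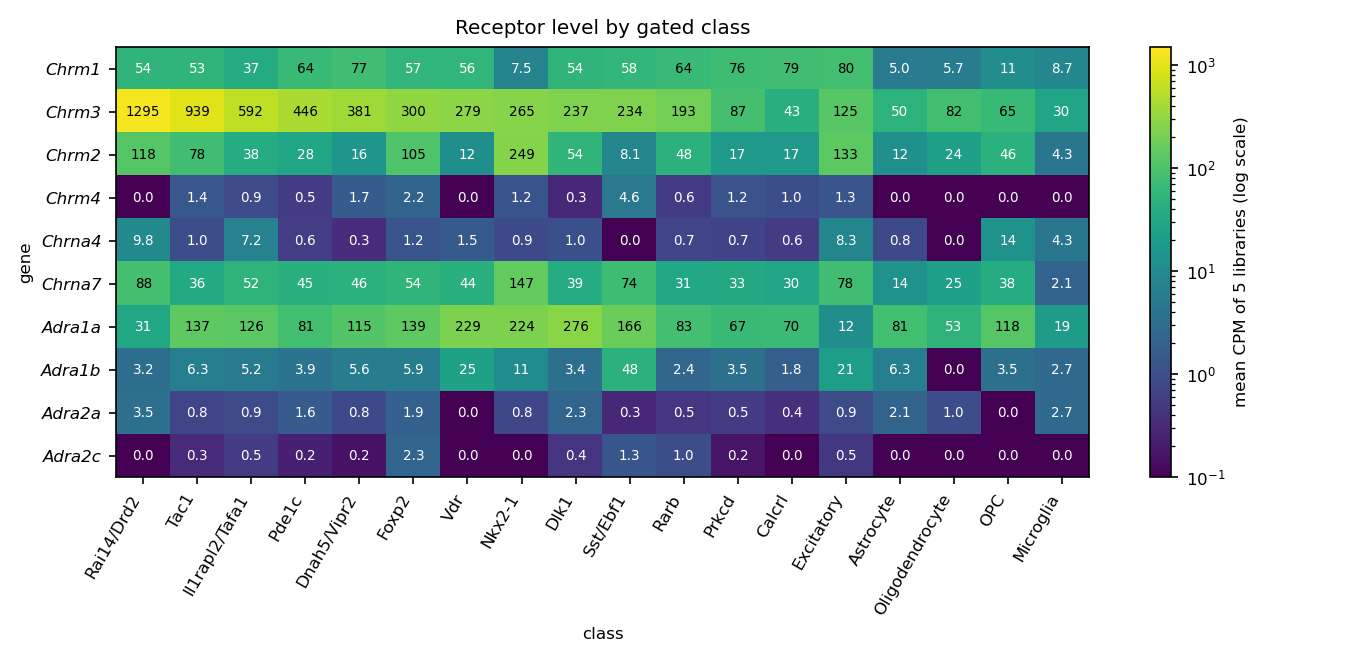
Mean level of each receptor gene (rows) in each gated class (columns), in CPM over 5 libraries, with the colour on a log scale and values under 0.1 drawn as 0.1. Among neuron classes Chrm3 runs from 43.1 CPM in the Calcrl class to 1295 in the Rai14/Drd2 class, Chrm1 is lowest in Nkx2-1 at 7.46, and the highest mean of the 4 rare genes is 14.2 CPM, for Chrna4 in OPC.

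Levels were compared between classes in 1 edgeR quasi-likelihood fit on summed UMIs with the library as a term, each class against the unweighted mean of the others, with Benjamini-Hochberg adjustment over all 9525 genes tested. The 14 classes with at least 10 nuclei in each library entered it, and a second fit with a minimum of 5 nuclei, added after the nuclei had been counted, took in the Nkx2-1, Rai14/Drd2 and microglial classes (9716 genes). In the first fit 6 of the 10 receptors passed the filter on low counts, so 84 receptor and class pairs were tested and 45 passed an adjusted p of 0.05, 26 of them higher. Calls are common in this comparison, and each class is read against its share of all genes called. For a neuron class the other classes include glia, so glial levels enter the mean it is set against. In the neuron classes, 5 of 6 receptors were called in Foxp2 (20.8% of all genes), 5 in Vdr (15.6%), 5 in Sst/Ebf1 (23.0%), 4 in Prkcd (35.9%), 3 in Calcrl (28.7%), 3 in Dnah5/Vipr2 (30.6%), 2 in Tac1 (19.1%), 2 in Dlk1 (17.7%), 2 in Pde1c (22.9%), 2 in Rarb (27.8%) and 1 in Il1rapl2/Tafa1 (24.6%). In glia, 5 of 6 were called in astrocytes (56.2%), 4 in oligodendrocytes (40.1%) and 2 in oligodendrocyte precursors (OPC, 34.5%), and all 11 of these glial calls were lower than the mean of the other classes. In the second fit 6 of 6 were called in Nkx2-1 (26.2%), 5 higher and 1 lower, 5 in Rai14/Drd2 (16.6%), 4 higher and 1 lower, and 5 in microglia (60.1%), each lower. Beside the contrasts, 19 pairs of classes that stand near each other or at the ends of a gene's order were compared in the same fits. They were picked with that order known, so each pair's difference is given with the share of genes called in it.

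Chrm3, the M3 receptor, spanned 30.1-fold between the means of its highest and lowest neuron classes, close to the 30.5-fold of Chrm2. In the Rai14/Drd2 class the level was 1359, 1089.9 and 1173 CPM in the fed libraries (replicates 1 to 3, in that order throughout) and 841 and 2012 CPM in the fasted libraries (replicates 1 and 2). In the Tac1 class, gated on the gene for the neuropeptide substance P, the values were 816, 1099 and 994 CPM in fed and 739 and 1047 CPM in fasted libraries. These classes took the first and second place among the 13 neuron classes in all 5 libraries, with Rai14/Drd2 first in 4 of them. They were not separated from each other in the fit (log2 difference 0.48 ± 0.21 SE, adjusted p = 0.214, where 4.85% of genes were called). The Rai14/Drd2 class holds only 55 nuclei, 8 to 17 in a library. Tac1 stood 2.49 ± 0.13 log2 units above the mean of the other classes (adjusted p = 3.0e-26) and Rai14/Drd2 2.97 ± 0.15 (2.2e-31).

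The next class down for Chrm3 was Il1rapl2/Tafa1 at 515, 522 and 698 CPM in fed and 505 and 718 CPM in fasted libraries, 1.75 ± 0.14 log2 units above the mean of the others (adjusted p = 7.3e-17). Tac1 exceeded it 1.62-fold (adjusted p = 0.0409, 2.08% of genes called), a call that was lost in the fit with the smaller classes added (adjusted p = 0.0586, 1.75% called). Il1rapl2/Tafa1 was not separated from Pde1c (446 ± 107 CPM, adjusted p = 0.334, 22.8% called), and the Dnah5/Vipr2 class followed at 381 ± 144 CPM. Foxp2, Vdr, Nkx2-1, Dlk1, Sst/Ebf1 and Rarb formed a middle range of 193 to 300.3 CPM in which no neighbouring pair was called.

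At the low end of Chrm3 were the Prkcd class, gated on protein kinase C delta, and the Calcrl class, gated on the receptor component for calcitonin gene-related peptide. Prkcd gave 44.5, 110.8 and 105.01 CPM in fed and 72.9 and 99.5 CPM in fasted libraries, and Calcrl gave 15.4, 29.1 and 112 CPM in fed and 16.2 and 42.1 CPM in fasted libraries. Rarb lay 2.36-fold above Prkcd (adjusted p = 2.2e-06, 27.3% called), and Prkcd 1.86-fold above Calcrl (adjusted p = 0.0175, 7.75% called). Fed replicate 3 was the exception in Calcrl, with a value above that of Prkcd in the same library. Against the mean of all other classes, the log2 difference was -2.17 ± 0.21 in Calcrl (adjusted p = 1.1e-13) and -1.21 ± 0.18 in Prkcd (4.9e-08). The mean in Calcrl nuclei, 43.1 ± 40.3 CPM, was below those in astrocytes (50.4 ± 25.2 CPM), oligodendrocytes (81.9 ± 33.8) and oligodendrocyte precursors (65.1 ± 47.8). It was above that in microglia (30.1 ± 32.3 CPM). In the fit with the smaller classes, Calcrl was separated from neither astrocytes (adjusted p = 0.813, 55.2% called) nor microglia (adjusted p = 0.126, 59.7% called).

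Within classes Chrm3 was uneven between nuclei. The median nucleus held 23 UMIs in Rai14/Drd2 and 10 in Tac1, where 30 of 180 nuclei had none and the most had 83. In Calcrl 187 of 253 nuclei had no Chrm3 UMI, while 1 held 50, and in Prkcd 295 of 433 had none and 1 held 94. To compare shares at equal depth, nuclei were thinned to 4000 UMIs each. A Chrm3 UMI was then present in 86.0 ± 10.7% of Rai14/Drd2, 74.8 ± 8.41% of Tac1, 64.0 ± 10.4% of Pde1c and 60.8 ± 3.55% of Il1rapl2/Tafa1 nuclei, against 15.2 ± 7.60% in Prkcd and 9.03 ± 5.83% in Calcrl. Microglia had 7.08 ± 9.83%, an SD above the mean, and the share in Calcrl lay within that spread. Whether free RNA or low expression gives the Calcrl share was not tested. Before thinning, Calcrl had 26.1% at a median of 15970 UMIs and microglia 11.7% at 4271. Microglia numbered 77, with 5 in fed replicate 3, and those under 4000 UMIs were left out by thinning. Their thinned shares, here and below, thus rest on few nuclei in each library.

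**Figure D2:**
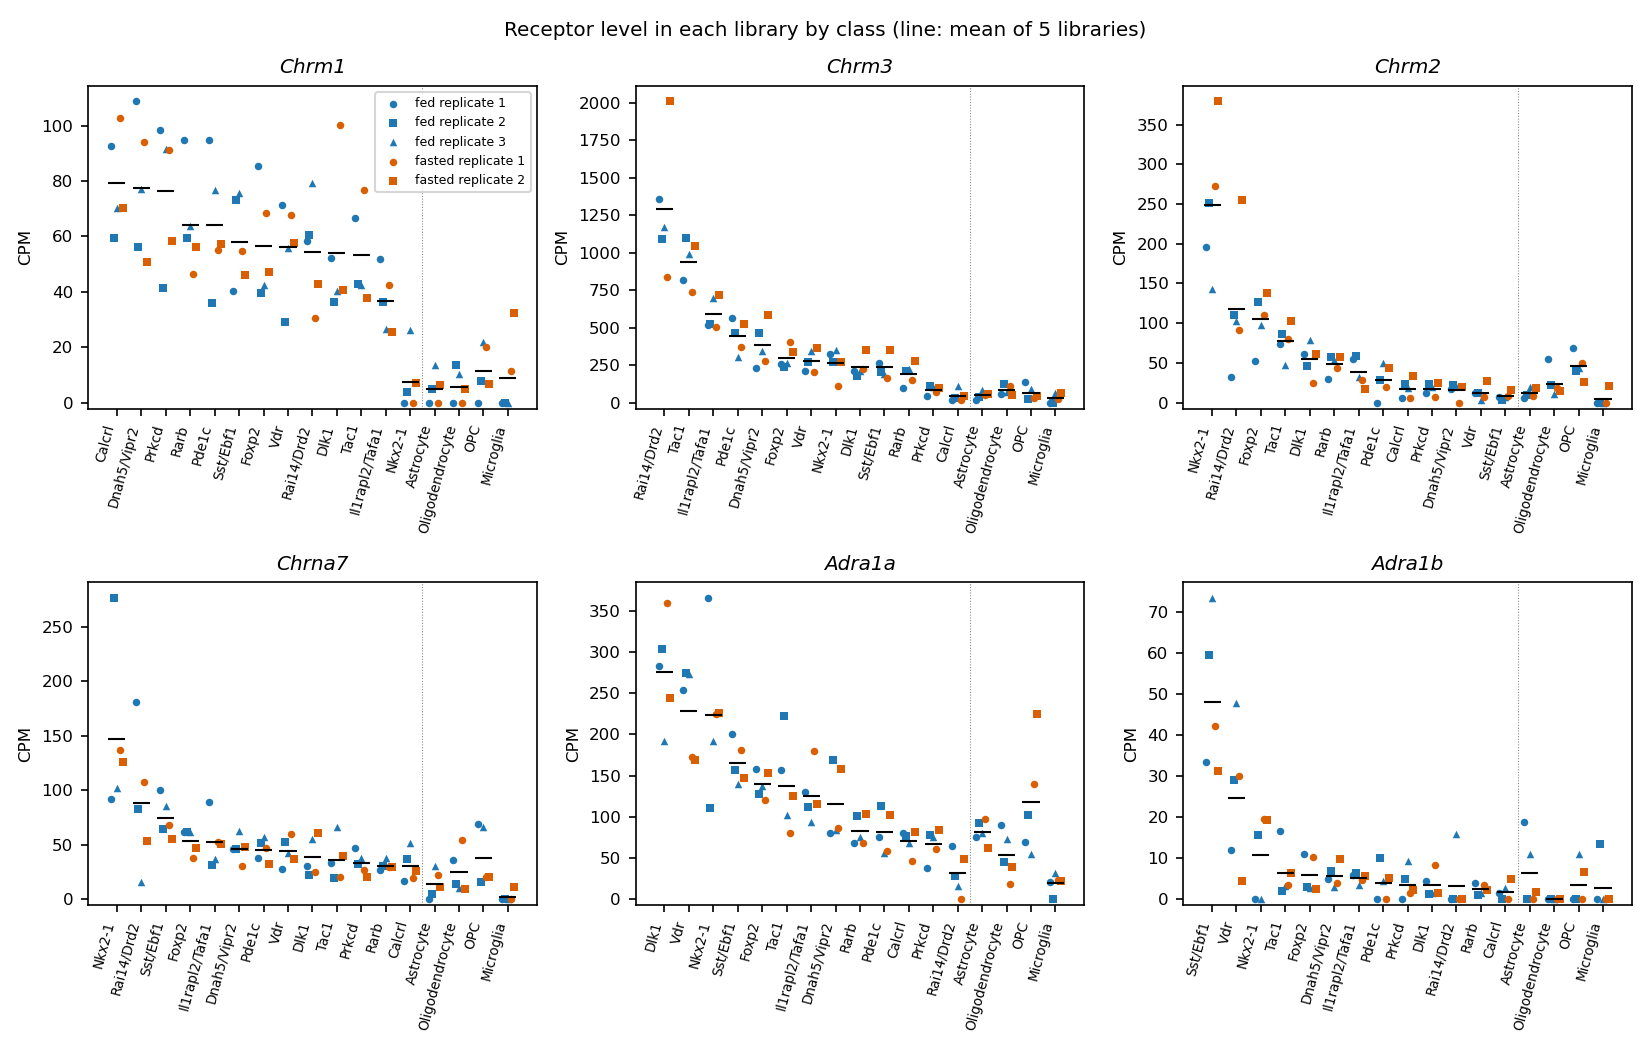
Level in CPM of the 6 abundant receptor genes in each of the 5 libraries (blue, fed; orange, fasted; shape, replicate number; line, mean of 5 libraries) by class, neuron classes ordered by mean and glia right of the dotted line. Chrm3 in Rai14/Drd2 and Tac1 is at least 739 CPM in all 5 libraries, and Adra1b in Sst/Ebf1 at least 31.2 CPM.

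Chrm1, the M1 receptor, had a narrower range outside the Nkx2-1 class. Means ran from 36.5 ± 11.1 CPM in Il1rapl2/Tafa1 to 79.2 ± 17.9 CPM in Calcrl, and 12 of the 13 neuron classes lay within that range. The values in Calcrl were 92.7, 59.5 and 70.3 CPM in fed and 103 and 70.4 CPM in fasted libraries. In Prkcd they were 98.6, 41.6 and 91.8 CPM in fed and 91.1 and 58.2 CPM in fasted libraries. These classes, lowest for Chrm3, were thus among the highest for Chrm1, with Calcrl 1.06 ± 0.14 log2 units above the mean of the other classes (adjusted p = 6.0e-09) and Prkcd 0.98 ± 0.13 (5.1e-09). They did not differ from each other (log2 difference 0.08 ± 0.16, adjusted p = 0.899). Calcrl exceeded Il1rapl2/Tafa1 2.21-fold (adjusted p = 6.2e-06, 27.1% called). Dnah5/Vipr2, with Chrm3 at 381 CPM, lay between Calcrl and Prkcd for Chrm1 at 77.5 ± 24.6 CPM. It stood 1.01 ± 0.15 log2 units above the mean of the other classes (adjusted p = 6.7e-08). In further pairs of the fit with the smaller classes, Calcrl was not separated from Rarb, Pde1c, Sst/Ebf1, Vdr or Rai14/Drd2 (adjusted p = 0.180 to 0.688, 13.7 to 18.6% called).

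The Nkx2-1 class, whose nuclei also carried the interneuron gene Lhx6, lay apart. Its Chrm1 values were 0, 3.90 and 26.2 CPM in fed and 0 and 7.21 CPM in fasted libraries, the lowest of the 13 neuron classes in 5 of 5 libraries, from 17 UMIs in 97 nuclei. Calcrl exceeded it 7.52-fold (adjusted p = 7.0e-12, 31.8% called). At equal depth 3.89 ± 3.63% of Nkx2-1 nuclei had a Chrm1 UMI against 28.4 ± 9.85% in Calcrl, and the share in microglia was 2.00 ± 4.47% (unthinned, 15.5, 61.3 and 3.90%). Astrocytes held 5.05 ± 5.67 CPM, oligodendrocytes 5.74 ± 6.09 and OPC 11.3 ± 9.36, each below the mean of the other classes (astrocytes at a log2 difference of -2.77 ± 0.36, adjusted p = 2.5e-10). The 58 nuclei with glutamate transporter UMIs, too few for a test, had 80.4 ± 22.9 CPM.

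The ratio of Chrm3 to Chrm1 UMIs also differed between classes. The median over libraries of Chrm3 per Chrm1 was 0.489 in Calcrl and 1.14 in Prkcd, 14.3 in Il1rapl2/Tafa1 and 23.4 in Tac1. The ranges over libraries were 0.158 to 1.60 in Calcrl and 9.65 to 27.6 in Tac1. This ratio also moved with the library: over all inhibitory nuclei it was 3.98, 9.16 and 5.55 in the fed libraries against 5.45 and 10.0 in the fasted ones. Both libraries numbered 2 were the highest, with the highest Chrm3 (379 and 450 CPM), Chrm2 (69.2 and 71.4) and Adra1a (141 and 144) and the lowest Chrm1 (41.3 and 44.9). The share of UMIs from genes over 100 kb long was 64.0, 66.4 and 63.4% in the fed and 63.7 and 64.6% in the fasted libraries, so it was also highest in those libraries. Its part in these levels was not tested.

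Chrm2, the M2 receptor (chromosome 6, 36364718 to 36505582, plus strand), was led by the Nkx2-1 class. There it had 196, 251 and 142 CPM in fed and 273 and 380 CPM in fasted libraries, the highest of the 13 neuron classes in 5 of 5 libraries and 3.13 ± 0.18 log2 units above the mean of the others (adjusted p = 1.9e-27). Second was Rai14/Drd2 at 32.4, 110.1 and 103 CPM in fed and 91.8 and 255 CPM in fasted libraries, and Nkx2-1 exceeded it 1.82-fold (adjusted p = 0.0183, 12.2% called). The Foxp2 class came next at 52.5, 126 and 97.4 CPM in fed and 109.7 and 138 CPM in fasted libraries. It was not separated from Rai14/Drd2 (adjusted p = 0.595, 10.5% called) nor from Tac1 at 77.9 ± 20.4 CPM (adjusted p = 0.176, 12.0% called). Foxp2 lay 2.06 ± 0.16 log2 units above the mean of the other classes (adjusted p = 1.6e-18) and Tac1 1.54 ± 0.20 above it (5.5e-09).

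At the other end, Sst/Ebf1 (8.14 ± 4.61 CPM), Vdr (12.1 ± 8.92), Dnah5/Vipr2 (15.9 ± 9.10), Prkcd (17.2 ± 7.26) and Calcrl (17.2 ± 11.7) held little Chrm2, with no neighbours in that run separated. Sst/Ebf1, gated on somatostatin, had a log2 difference of -1.75 ± 0.36 from the mean of the others (adjusted p = 7.4e-05). The calls in Vdr, Dnah5/Vipr2 and Prkcd, at log2 values of -1.08, -0.81 and -0.71, were each lost in at least 1 alternative. In Vdr 4 of the 5 fits that leave out 1 library lost the call, with the weakest value, -0.74 (adjusted p = 0.267), without fed replicate 3. At equal depth a Chrm2 UMI was found in 49.0 ± 18.5% of Nkx2-1, 19.8 ± 2.78% of Foxp2 and 6.30 ± 2.96% of Prkcd nuclei and in none of the microglia thinned (unthinned, 61.9, 35.6, 15.2 and 2.60%). The nuclei with glutamate transporter UMIs had 133 ± 71.0 CPM and OPC 45.7 ± 15.6 CPM from 22 UMIs.

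Chrm4, the M4 receptor, which is known from striatal neurons of the direct pathway, gave 89 UMIs in all inhibitory nuclei, or 1.19 ± 0.303 CPM. Its highest mean was 4.61 ± 4.23 CPM in Sst/Ebf1 from 10 UMIs, and it had none in the Vdr and Rai14/Drd2 classes. At these counts no order of classes can be read.

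**Figure D3:**
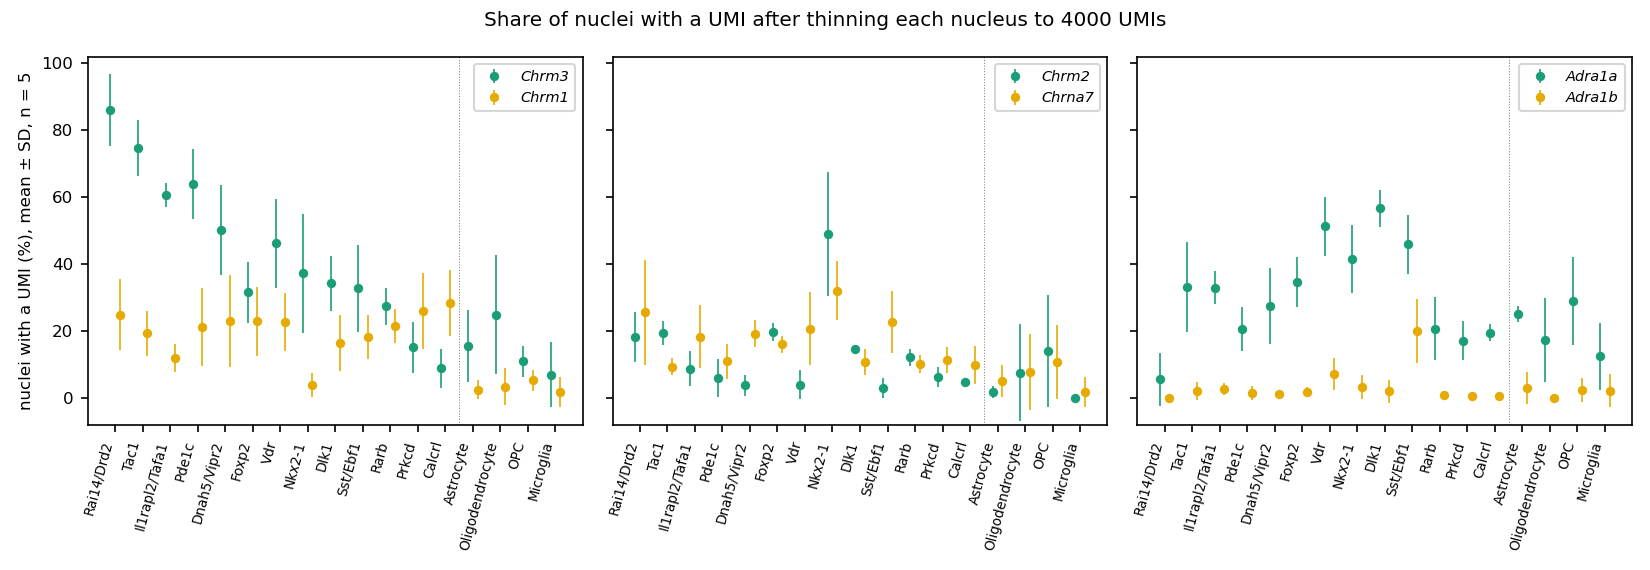
Share of nuclei with at least 1 UMI of each gene after thinning to 4000 UMIs per nucleus, in percent, as mean ± SD over 5 libraries, by class; shallower nuclei were left out. Among neuron classes the Chrm3 share falls from 86.0% in Rai14/Drd2 to 9.03% in Calcrl, the highest Chrm1 share is 28.4% in Calcrl, and Adra1b is highest in Sst/Ebf1 at 20.1%.

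Chrna7 (chromosome 7, 62731494 to 62862322, minus strand) had the narrowest range of the 6 abundant genes over all neuron classes, 4.89-fold between the highest and the lowest mean. It was highest in Nkx2-1 at 91.6, 277 and 102 CPM in fed and 137 and 126 CPM in fasted libraries, first among neuron classes in 4 of 5 libraries and 2.32 ± 0.20 log2 units above the mean of the others (adjusted p = 3.0e-17). Its nuclei were uneven: 43 of 97 had no Chrna7 UMI and the median was 1. The most in a nucleus was 52, of 303 UMIs in the class, so the summed level leans on few nuclei. Nkx2-1 exceeded Rai14/Drd2 1.94-fold (adjusted p = 0.0260), whose values ran from 15.8 to 181 CPM with 2 UMIs in the library with the fewest. Sst/Ebf1 followed with 101, 64.2 and 85.1 CPM in fed and 67.6 and 55.0 CPM in fasted libraries, 1.03 ± 0.19 log2 units above the mean of the others (adjusted p = 1.1e-05). It was not separated from Rai14/Drd2 (adjusted p = 0.771, 12.5% called) nor from Foxp2 at 53.7 ± 10.99 CPM (adjusted p = 0.353, 17.3% called). All other neuron classes lay between 29.9 and 52.1 CPM. Astrocytes had 13.7 ± 12.4 CPM, with a log2 difference of -1.47 ± 0.33 from the mean of the others (adjusted p = 7.1e-05), and microglia 1 UMI in 77 nuclei. At equal depth the share of nuclei with a Chrna7 UMI was 32.2 ± 8.88% in Nkx2-1, 9.92 ± 5.55% in Calcrl and 2.00 ± 4.47% in microglia (unthinned, 55.7, 29.2 and 1.30%).

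Chrna4 (chromosome 2, 180660173 to 180685339, minus strand) was too rare for the class fit. It was highest in OPC at 14.2 ± 12.3 CPM from 8 UMIs and, among neurons, in Rai14/Drd2 at 9.84 ± 11.004 CPM from 8 UMIs and Il1rapl2/Tafa1 at 7.16 ± 6.71 CPM from 15 UMIs. Il1rapl2/Tafa1 was among the 2 highest neuron classes in 5 of 5 libraries. In the other 11 neuron classes the mean was at most 1.504 CPM, and Sst/Ebf1 had none in 175 nuclei.

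Adra1a, the alpha 1A receptor (chromosome 14, 66872700 to 67012152, plus strand), was the most counted noradrenaline receptor and was found in every neuron class. The Dlk1 class had 283, 303 and 192 CPM in fed and 359 and 245 CPM in fasted libraries, and the Vdr class, gated on the vitamin D receptor, 254, 274 and 274 CPM in fed and 173 and 169 CPM in fasted libraries. These were not separated in the fit (log2 difference 0.17 ± 0.19, adjusted p = 0.724, 8.75% called). Dlk1 lay 1.27 ± 0.13 log2 units above the mean of the other classes (adjusted p = 1.7e-12) and Vdr 1.09 ± 0.15 (4.7e-08). Nkx2-1 was close, at 224 ± 92.2 CPM with 111 to 366 CPM over libraries. Sst/Ebf1, at 166 ± 25.2 CPM, was exceeded 1.58-fold by Dlk1 (adjusted p = 0.00823, 16.4% called) but was not separated from Vdr (adjusted p = 0.121, 11.7% called).

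The lowest Adra1a level among neurons was in Rai14/Drd2, at 64.7, 27.5 and 15.8 CPM in fed and 0 and 48.2 CPM in fasted libraries, the lowest class in 4 of 5 libraries with a log2 difference of -1.40 ± 0.32 from the mean of the others (adjusted p = 4.1e-04). Prkcd (67.0 ± 18.7 CPM) had a log2 difference of -0.73 ± 0.14 (adjusted p = 1.8e-05) and Calcrl (70.2 ± 14.6 CPM) one of -0.65 ± 0.15 (4.5e-04). The Calcrl call was lost in the fit with the 3 smaller classes (log2 value -0.40, adjusted p = 0.0620). Glia carried Adra1a as well: astrocytes had 75.6, 92.5 and 79.6 CPM in fed and 96.9 and 61.9 CPM in fasted libraries, and OPC 118 ± 67.9 CPM from 70 UMIs. Astrocytes overlapped Prkcd and Calcrl in level. Nuclei with glutamate transporter UMIs had 11.8 ± 11.8 CPM. At equal depth 56.8 ± 5.50% of Dlk1, 51.4 ± 8.87% of Vdr, 17.2 ± 5.88% of Prkcd and 12.5 ± 9.98% of microglial nuclei had an Adra1a UMI (unthinned, 81.7, 74.8, 38.8 and 7.79%). The thinned Prkcd share was near that in microglia, but the summed level in Prkcd, 67.0 ± 18.7 CPM, was above the 19.4 ± 11.7 CPM in microglia.

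Adra1b, the alpha 1B receptor (chromosome 11, 43665433 to 43792037, minus strand), was concentrated in few nuclei. In Sst/Ebf1 it had 33.5, 59.6 and 73.6 CPM in fed and 42.2 and 31.2 CPM in fasted libraries, the highest of the 13 neuron classes in 5 of 5 libraries. Vdr followed at 11.9, 29.2 and 47.9 CPM in fed and 30.1 and 4.42 CPM in fasted libraries, from 33 UMIs. Sst/Ebf1 exceeded Vdr 2.37-fold (adjusted p = 0.0486), a difference that missed the threshold in the fit with the smaller classes added (log2 difference 1.21 ± 0.45, adjusted p = 0.0734, 10.9% called). Vdr exceeded Dnah5/Vipr2, at 5.65 ± 2.69 CPM, 3.30-fold (adjusted p = 0.0183, 18.1% called). Apart from Nkx2-1 (10.9 ± 10.0 CPM), every other neuron class had a mean of at most 6.28 CPM.

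Both classes were called against the mean of the others (adjusted p = 4.4e-16 and 7.1e-05). No fold is given for it, since oligodendrocytes had 0 Adra1b UMIs in 5 of 5 libraries and enter that mean. The same limit applies to these calls and to the Adra1b call in Nkx2-1, all of which are in the counts of calls above. The pair contrasts do not have it. With gates raised by 1 UMI, where Sst/Ebf1 and Vdr did not enter, Adra1b did not pass the filter on low counts. Its place in the fits thus leans on classes where it is high. The Adra1b calls and pair p-values therefore describe its levels and are no separate support for them. In Sst/Ebf1 59 of the 175 nuclei had a UMI, with at most 9 in a nucleus, and in Vdr 11 of 107. At equal depth the shares were 20.1 ± 9.60% in Sst/Ebf1 and 7.28 ± 4.75% in Vdr, against 0.706 ± 1.09% in Prkcd and 2.22 ± 4.97% in microglia (unthinned, 33.7, 10.3, 4.39 and 1.30%). Nuclei with glutamate transporter UMIs had 20.8 ± 14.8 CPM from 23 UMIs. Sst/Ebf1 was thus the highest neuron class for Adra1b. It was above the mean of the other classes, glia included, for Chrna7, Chrm1 and Adra1a and below it for Chrm2. Its Chrm1 level, 58.1 CPM, was close to the median of the neuron class means, 56.6 CPM.

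Of the alpha 2 receptors, Adra2a had 77 UMIs in all inhibitory nuclei (0.912 ± 0.351 CPM) and Adra2c 60 (0.721 ± 0.258 CPM). Foxp2 held 20 of the Adra2a and 16 of the Adra2c UMIs, at 1.90 ± 1.75 and 2.28 ± 1.80 CPM. Adra2c had 0 UMIs in Nkx2-1, Vdr, Calcrl and Rai14/Drd2. These counts set no order between classes.

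For each gene that reached 20 CPM in some class, the pattern over the 14 class means (log2 of CPM plus 1) was compared with that of 9130 other genes by Pearson's r, as a description over classes that share libraries. Chrm1 was most like Celf3 (r = 0.987) and Cacna1e (0.985). Chrm3 was most like Isl1 (0.920), a transcription factor gene of striatal lineage neurons, and Rxrg (0.880), a retinoid receptor gene. Chrm2 was most like Pld5 (0.861) and Olfm3 (0.845), and Chrna7 like Tnk2 (0.897) and Sh3gl2 (0.889). Adra1a was most like Lrrcc1 (0.850) and Slc36a4 (0.826), and Adra1b like Bex3 (0.858) and Nat8l (0.844). The Nkx2-1 and Rai14/Drd2 classes are not among the 14, but astrocytes, oligodendrocytes and OPC are. Chrm1 had 5.05, 5.74 and 11.3 CPM in those glia and at least 36.5 CPM in the neuron classes compared, so its r includes that difference.

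The question of the fed and fasted libraries was whether fasting alters expression by cell type. Over the 14 classes and all inhibitory nuclei summed, 69 receptor and class pairs were tested and 0 passed an adjusted p of 0.05 by edgeR's quasi-likelihood test. At an unadjusted p under 0.05 there were 8, where 5.04% of all gene and class tests were, and the likelihood ratio test and DESeq2 also called 0. With Nkx2-1, Rai14/Drd2 and microglia added the count was 0 of 76, with 10 under an unadjusted 0.05 (4.93% of all tests). Few genes of any kind were called: 0.462% of genes in Tac1, 0.223% in OPC, 0.164% in Dlk1, 0.111% in Dnah5/Vipr2, 0.0645% in Prkcd, 0.0602% in Vdr, 0.0587% in Foxp2, 0.0392% in Rarb, 0.0317% in Sst/Ebf1, 0.0155% in astrocytes and 0.00742% in all inhibitory nuclei. In Pde1c, Calcrl, Il1rapl2/Tafa1, oligodendrocytes, Nkx2-1, Rai14/Drd2 and microglia it was 0.00%. All 10 receptors could be tested in the inhibitory nuclei together. Fasted minus fed log2 differences there were 0.19 ± 0.15 for Chrm3, 0.06 ± 0.22 for Chrm2, -0.17 ± 0.25 for Chrm1, 0.07 ± 0.13 for Adra1a, -0.10 ± 0.19 for Adra1b and -0.27 ± 0.13 for Chrna7. The 4 rare genes had 0.29 ± 0.54 for Chrna4, -0.62 ± 0.40 for Chrm4, 0.65 ± 0.45 for Adra2c and -0.51 ± 0.47 for Adra2a.

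The replicate numbers pair fed and fasted libraries by preparation, so the fit was repeated with the number as a block. Fed replicate 3 has a block of its own there and adds nothing to the difference, which rests on 2 pairs. Under the block, 3 of the 69 pairs passed the threshold. Chrna7 in all inhibitory nuclei had 55.5, 58.1 and 49.3 CPM in fed and 44.6 and 46.8 CPM in fasted libraries. Its log2 difference was -0.34 ± 0.095 (quasi-likelihood test, adjusted p = 0.0256 with the block, where 3.16% of genes were called, and 0.9997 without it). Chrm2 in Il1rapl2/Tafa1 had 54.7, 58.4 and 31.7 CPM in fed and 28.3 and 16.9 CPM in fasted libraries. The log2 difference was -1.58 ± 0.39 (quasi-likelihood test, adjusted p = 0.0162, 0.434% called, and 0.999 without the block). It rests on 117 UMIs, 6 in the library with the fewest. Adra1a in Tac1 had 157, 223 and 102 CPM in fed and 79.9 and 126 CPM in fasted libraries, which overlap, and had a log2 difference of -0.90 ± 0.23 (adjusted p = 0.0297, 1.18% called; 0.999 without the block). Each of these calls exists only with the block.

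The other differences with an unadjusted p under 0.05 were called in neither fit. Chrm3 had 258, 236 and 263 CPM in the fed and 405 and 340 CPM in the fasted libraries of Foxp2 (log2 difference 0.51 ± 0.18), and 213, 180 and 213 CPM against 226 and 354 CPM in Dlk1 (0.60 ± 0.23). Chrna7 had 47.2, 31.8 and 37.7 CPM in fed and 26.6 and 20.3 CPM in fasted libraries of Prkcd (-0.77 ± 0.28), and 61.3, 61.8 and 61.2 CPM against 37.7 and 46.7 CPM in Foxp2 (-0.51 ± 0.23). Adra1a had 254, 274 and 274 CPM against 173 and 169 CPM in Vdr (-0.62 ± 0.25), and in OPC 68.9, 102 and 55.0 CPM against 139 and 225 CPM (1.24 ± 0.44), where fed replicate 1 held 4 UMIs. Adra1b in Sst/Ebf1 had overlapping values (-0.83 ± 0.35).

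For Chrm2 in the small classes the log2 differences were 0.73 ± 0.32 in Nkx2-1 and 1.30 ± 0.46 in Rai14/Drd2, and in the latter fed and fasted values overlapped. Neither was called with all libraries. Without fasted replicate 1, which left fasted replicate 2 alone in its group, the Rai14/Drd2 difference was 1.67 (adjusted p = 0.0228, 0.265% called), so this value rests on 255 CPM in 1 library of 17 nuclei. Whether the difference between fasted and fed libraries itself varied between the 14 classes was tested by an interaction. It was called for 8 of 9525 genes (0.0840%) and for 0 of the 6 receptors tested, with 0 receptors under an unadjusted p of 0.05. Chrm2 had the smallest p in edgeR's quasi-likelihood F test, 0.0546 (adjusted p = 0.870).

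**Figure D4:**
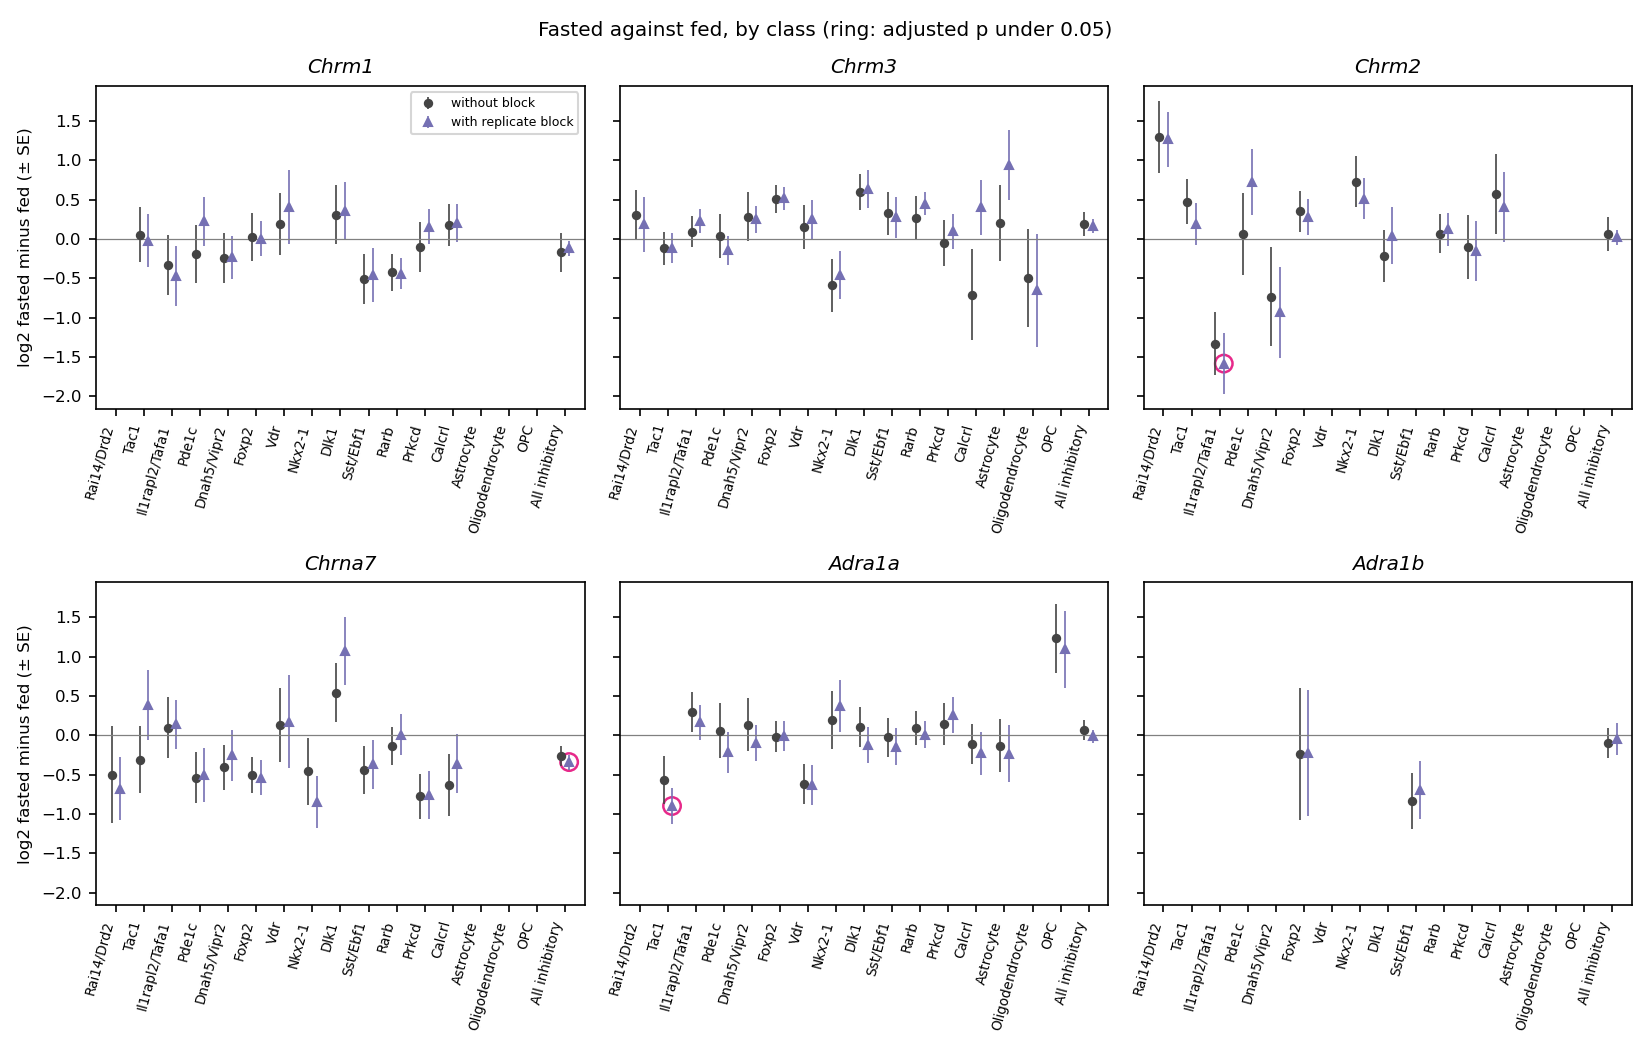
Fasted minus fed log2 difference (± SE) of the 6 abundant receptor genes by class from edgeR's quasi-likelihood fit, without (dark circles) and with (purple triangles) the replicate number as a block; rings mark an adjusted p under 0.05 and a missing point means that the gene did not pass the filter on low counts. Rings appear only with the block, for Chrm2 in Il1rapl2/Tafa1 (-1.58), Adra1a in Tac1 (-0.90) and Chrna7 in all inhibitory nuclei (-0.34).

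Fed replicate 3 allows 1 further comparison, without a test, since it is a single library. In Htr2a-Cre mice AAV-DIO-mCherry marks cells with Cre activity, and mCherry UMIs were found in 436 nuclei of this library and in 0 of any other. Of its inhibitory nuclei, 411 had an mCherry UMI and 811 did not, at medians of 15566 and 13961 UMIs. Chrna7 was at 56.6 CPM (95% exact Poisson interval 51.2 to 62.5, counting error only) with and 45.0 CPM (41.4 to 49.0) without mCherry. Adra1a was at 122 CPM (114 to 131) and 111 CPM (105.2 to 117), Chrm3 at 319 CPM (306 to 332) and 332 CPM (322 to 342), Chrm2 at 50.1 CPM (45.1 to 55.6) and 54.2 CPM (50.2 to 58.5), and Chrm1 at 58.5 CPM (53.0 to 64.4) and 59.1 CPM (54.9 to 63.6). Of these CPM intervals, only those of Chrna7 did not meet. At equal depth the shares with a Chrna7 UMI were 17.4% with mCherry (95% exact binomial interval 13.8 to 21.4) and 13.75% without (11.4 to 16.3), which overlap. Neither kind of interval holds the spread between mice, so these values describe 1 library. The classes were unevenly marked. An mCherry UMI was in 58.8% of Nkx2-1 (10 of 17 nuclei), 54.2% of Vdr, 50.0% of Sst/Ebf1, 25.0% of Rai14/Drd2 and 20.7% of Foxp2 nuclei. Mean Chrna7 over the 5 libraries was 147, 44.0, 74.5, 88.1 and 53.7 CPM in those classes, in that order. Whether the mix of classes bears on the Chrna7 difference was not tested.

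The other genes of these pathways were followed as 8 lists, in all inhibitory nuclei and by class. In the fit of all inhibitory nuclei without the block, 0 genes of any list differed between fasted and fed libraries. Over classes and all inhibitory nuclei together the count was 0 of 448 tests by edgeR's quasi-likelihood test. There 27 were under an unadjusted p of 0.05, against the 5.04% of all tests. The Gq and G11 route held 14 of these in 112 tests and the Gi and Go route 6 in 133. Each other list had 0 to 3. Other tools were not run on the lists. Among the other muscarinic and adrenergic receptors, Adrb1, for the beta 1 receptor, had 11.6 ± 1.51 CPM and Chrm5 1.68 ± 0.567 CPM. Of 6 genes, 2 could be tested in all inhibitory nuclei, and their median log2 difference was -0.17 against -0.01 over all genes tested. Of the other nicotinic subunits, Chrnb2, for the beta 2 partner of alpha 4, led at 7.98 ± 0.351 CPM, with Chrna9 at 2.20 ± 0.622 CPM, and 4 of 14 could be tested (median 0.01). In the class fit 6 of 14 tests of the first list were called, and no gene of the second passed its filter.

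For making and clearing the transmitters, Ache, which breaks down acetylcholine, had 32.5 ± 2.38 CPM and Chat, which makes it, 5.07 ± 1.16 CPM (3 of 5 genes tested, median 0.28). In the list for noradrenaline, Ddc, an enzyme of catecholamine synthesis, had 62.0 ± 9.11 CPM (5 of 8 tested, median -0.12). The nicotinic chaperones and prototoxins were led by Ly6h at 149 ± 10.0 CPM and Lypd1 at 93.8 ± 12.0 CPM (8 of 8 tested, median 0.10). In the route downstream of Gq, Plcb1, a phospholipase C, had 2305 ± 97.9 CPM and Prkcb 702 ± 95.2 CPM (10 of 10 tested, median 0.02). In the Gi and Go route, Rgs7 had 614 ± 43.9 CPM and Gnao1, for the alpha subunit of Go, 486 ± 44.5 CPM (11 of 11 tested, median -0.12). Grk3 and Grk5, kinases of receptor shutdown, had 109 ± 7.90 and 99.8 ± 9.32 CPM (6 of 6 tested, median 0.02). Between classes, where 28.4% of all gene and class tests were called, the lists had 54 of 112 tests for the Gq route, 78 of 154 for the Gi and Go route, 31 of 84 for kinases and arrestins, 32 of 98 for chaperones, 35 of 70 for noradrenaline handling and 8 of 28 for acetylcholine handling.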

How the data were processed

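The deposited matrices hold raw UMI counts per gene and barcode, which the authors made with Cell Ranger with introns counted and Cre and mCherry added to the reference. The file headers give version 5.0.0 and the methods GRCm39 (the submitters' processing notes list Cell Ranger 2.1.1 and mm10). Nothing had been normalized.

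Nuclei were kept at 500 to 8000 genes and under 0.8% mitochondrial UMIs, and inhibitory nuclei were gated in a fixed order on raw UMIs, the first gate met deciding: Pde1c 15, Foxp2 6, Rarb 10, Nkx2-1 1, Vdr 1, Dnah5 2 with Vipr2 1, Calcrl 3, Prkcd 3, Tac1 1, Sst 2 with Ebf1 3, Dlk1 2, Il1rapl2 4 with Tafa1 2, and Rai14 2 with Drd2 1. No receptor followed here is in a gate. The minimums were set after nuclei and marker levels, and with them receptor levels, had been seen; the genes and lists were chosen with earlier results of these data known. Glial panels had minimums of 4 to 8 UMIs; 155 nuclei with both inhibitory and glial UMIs were left out. Scrublet (scanpy 1.11.5) called 70 doublets (0.978%), which were kept.

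UMIs were summed per library and class. Tests were edgeR 4.0.16 quasi-likelihood fits in R 4.3.3 (TMM, filterByExpr, Benjamini-Hochberg over all genes of a contrast, threshold 0.05); DESeq2 1.42.0 was an alternative. A standard error is the log2 difference over the square root of F. Gene spans come from GENCODE vM39 on GRCm39. Steps were tested on simulated data. Named were all 10 receptors in each comparison, list genes past the threshold between fed and fasted (none were), the 2 list genes with the highest CPM in all inhibitory nuclei, and 2 neighbours in pattern; 1 gene that the rule names is not reported here.

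The replicate numbers pair libraries by preparation batch, from the study's legend, which puts both libraries numbered 1 in one batch and both numbered 2 in another; fed replicate 3 was taken as the remaining one. Deviations from the feeding mean correlated between same-numbered libraries at 0.351 and 0.539 over genes in all inhibitory nuclei. Within classes the values were lower, as in Prkcd (0.151 and 0.263) and astrocytes (0.0725 and -0.0249). The deviations of the 2 fasted libraries mirror each other, so these are not 2 separate checks. Both libraries numbered 1 were also the shallowest, and the part of depth was not tested. Separate tissue pools of 2 mice are the replicates. Between fed and fasted libraries, p-values without the block measure the spread between pools, and with it the spread left within batches. In the class contrasts, class pairs and interaction the library is a term. Their p-values measure the spread over classes and libraries that is left once differences between pools are removed.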

Additional observations from a re-analysis of the deposited data

How the results depend on the processing

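Of 84 receptor and class tests, 45 were called in the main setting, 45 without TMM, with at least 1000 genes per nucleus, without the Scrublet doublets and in the fit with smaller classes, and 39 in the fed libraries alone. With gates raised by 1 UMI, 9 classes and 5 receptors without Adra1b remained and 34 of 45 were called, and without the filter on low counts 55 of 140. Leaving out 1 library gave 41 to 43. The share of all genes called, 28.4% in the main setting, moved as well. In Foxp2 it was 1983 of 9525 genes in the main setting and 1473 of 9600 in the fed libraries. With raised gates it was 2503 of 8765 there and without the filter 2380 of 17726. In astrocytes the counts were 5353 of 9525, 4182 of 9600, 4817 of 8765 and 6364 of 17726, in that order. The receptor counts are thus not read as a change in the receptors. Of the 45 calls, 33 held in all alternatives in which they could be tested, none changed direction, and the 12 that were lost at least once were Chrm1, Chrm3 and Adra1a in Foxp2, Chrm1, Chrm2 and Chrm3 in Vdr, Chrm2 in Dnah5/Vipr2 and Prkcd, Adra1a in Calcrl and astrocytes, and Chrm3 and Chrna7 in oligodendrocytes. The contrasts of Nkx2-1, Rai14/Drd2 and microglia come from 1 fit added after seeing the data and were not run under the other settings.

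Between fed and fasted libraries, the count of receptors called was 0 in all settings for the 14 classes and the inhibitory nuclei except the replicate block, which gave 3 and changed no other receptor call. Genes of any kind called, summed over those groups, numbered 82 in the main setting, 588 by the likelihood ratio test, 197 by DESeq2, 881 without the filter, 1061 with the replicate block, 42 with raised gates and 18 to 279 when 1 library was left out (18 without fed replicate 3, 279 without fasted replicate 1, 170 without fasted replicate 2). For the interaction the 8 genes became 4 with raised gates and 0 to 10 with 1 library left out (0 without fed replicate 3 or fasted replicate 2, 2 without fed replicate 1); receptors stayed at 0. The causes were not tested.

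Thinned to 2000 in place of 4000 UMIs, the share with Chrm3 in Tac1 was 64.5% and that with Chrm1 in Calcrl 18.4%. Depth limits Chrm4, Chrna4, Adra2a and Adra2c, with at most 40 UMIs in a library's inhibitory nuclei.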
